A study of Mus musculus with 17 samples.

Results

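Forkhead proteins are transcription factors that share a DNA-binding domain, the forkhead box, and are sorted into lettered subfamilies by the sequence of that domain. Every row of the count table whose Entrez gene number maps to a mouse symbol made of Fox, a letter from a to s and a number was taken as a member. This gave 44 genes in 19 subfamilies out of 24013 rows. The genes came from RNA sequencing of germ cells sorted from the testis of mice of the genotype Tert-Tomato/+, a reporter of the telomerase gene Tert, on a B6/J X B6/N mixed background. Adult testes gave 3 groups, all high in TERT. Cells without Kit were split by GFRA1 into those that carry it (GFRA1pos, n = 4 libraries) and those that lack it (GFRA1neg, n = 4), and the cells that carry Kit, labelled differentiated spermatogonia, form the group KITpos (n = 5). Neonates at day 6 gave gonocytes positive for TERT and for OCT4-GFP (P6gonocyte, n = 4). All 4 groups carry the reporter allele, and the genotype label names no GFP allele. Age and the sort gates differ together between P6gonocyte and the adult groups, so their parts cannot be told apart. The gates differ in OCT4-GFP, in TERT (positive in P6gonocyte, high in the adult groups) and in Kit and GFRA1, which the P6gonocyte titles do not name. The labels do not say that the libraries came from separate animals, nor whether animals were pooled, so p-values measure the spread between these libraries, which may be technical.

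GFRA1 is a receptor for GDNF found on the most primitive spermatogonia, and Kit is the receptor gained when spermatogonia enter differentiation. FOXO proteins sit at the end of the PI3K-AKT pathway: AKT phosphorylates them and they leave the nucleus, so their messenger RNA does not show how active they are. Foxo1 is known in the testis as a marker of gonocytes and undifferentiated spermatogonia that is needed to keep the stem cell pool, and Foxc2 as a marker of a slowly cycling subset of spermatogonial stem cells. FOXM1 switches on genes of mitosis, and FOXJ1 those of motile cilia and flagella.

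Totals per library ran from 10918223 to 11567191 counts in GFRA1pos, 9965437 to 12641907 in GFRA1neg, 5178352 to 8300165 in KITpos and 6479216 to 8468203 in P6gonocyte. The most abundant row, which matched no symbol, held 9.6% to 29.9% of the counts of a library. The levels below are scaled with it included. The sort genes followed the gates. Gfra1 averaged 389 CPM (counts scaled to library size) in GFRA1pos and 22.8 in GFRA1neg, with 4.71 in KITpos and 145 in P6gonocyte. Kit averaged 17.6, 27.6, 352 and 187 CPM in the same order, so the P6gonocyte libraries held Kit messages as well. The 3 germ cell markers Ddx4, Dazl and Dnd1 summed to between 341 and 1338 CPM in every library. Libraries of the adult groups also held messages of later germ cells: 7 spermatid markers summed to 62.8 to 1493 CPM in GFRA1pos, 287 to 1321 in GFRA1neg and 271 to 1031 in KITpos, against 6.97 to 9.43 in P6gonocyte, where Prm1 was at 0. These sums differed between replicates of 1 group, and each count of called genes below was also computed without the 4 libraries highest in them (GFRA1pos replicates 2 and 4, GFRA1neg replicate 2 and KITpos replicate 1). This leaves fewer libraries in every adult group. For a call lost that way, fewer libraries and less spermatid RNA cannot be told apart. In such bulk samples, fewer cells of a type and less RNA per cell cannot be told apart.

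Of the 44 forkhead genes, 22 had enough counts to test and 22 did not. Of the 22 tested, 18 varied over the 4 groups in a quasi-likelihood test (edgeR, adjusted p under 0.05), where 73.5% of the 15451 genes tested did so. Among these 18, the highest mean lay in GFRA1pos for 11, in GFRA1neg for 4, in KITpos for 2 and in P6gonocyte for 1. The lowest mean lay in KITpos for 12, in P6gonocyte for 4 and in GFRA1pos for 2. Among all 11352 genes past that test, the highest mean lay in GFRA1pos for 20.9%, in GFRA1neg for 23.1%, in KITpos for 36.2% and in P6gonocyte for 19.8%. The lowest lay in KITpos for 30.9%, in P6gonocyte for 27.7%, in GFRA1pos for 22.1% and in GFRA1neg for 19.3%. Divided by exon length, so that genes can be compared, the 44 genes summed to 340 ± 21 CPM per kb (SD, n = 4) in GFRA1pos, 344 ± 39 in GFRA1neg (n = 4), 163 ± 19 in KITpos (n = 5) and 206 ± 11 in P6gonocyte (n = 4). The libraries of the adult Kit-negative groups, at 294 to 387 CPM per kb, did not overlap those of KITpos, at 141 to 190, or of P6gonocyte, at 193 to 219. Foxo genes were the largest subfamily in 3 groups, with 29.9% of the family's CPM per kb in GFRA1pos, 31.3% in GFRA1neg and 27.2% in P6gonocyte. In KITpos their share was 15.5% ± 1.8 (SD, n = 5), below Foxm at 24.0% and Foxj at 21.0%, and Foxn stood at 16.4%. Foxf made up 20.1% in GFRA1neg and 1.28% in KITpos. The rank of Foxo in KITpos depends on the division by exon length. In undivided CPM, Foxo was the largest subfamily there too, at 22.4% ± 2.4, with Foxj at 21.1% and Foxm at 20.8%.

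**Figure D1:**
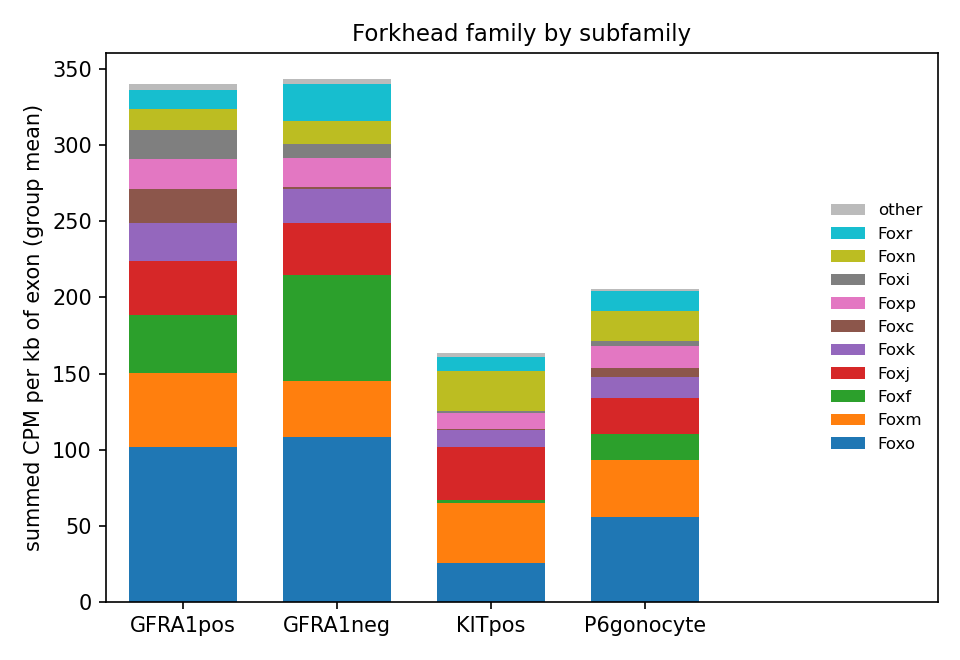
Summed level of each forkhead subfamily (vertical axis, CPM per kb of exon, mean over the libraries of a group) in the 4 sorted groups (horizontal axis), stacked, with the 9 smaller subfamilies as "other". The bars reach 340, 344, 163 and 206, and the Foxo and Foxf layers are thinnest in KITpos.

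Between GFRA1pos and GFRA1neg, which asks how TERT-high Kit-negative cells with and without GFRA1 differ, 3 forkhead genes were higher in GFRA1pos (Foxc2, Foxl1 and Foxo6) and 4 were lower (Foxf1, Foxn4, Foxo1 and Foxr1) of the 22 tested. Over all genes tested 7.30% were higher and 6.84% lower. The median log2 difference was 0.10 for the 22 members and -0.04 for all genes. Between KITpos and GFRA1neg, the step at which Kit is gained, 14 members were lower in KITpos and 2 were higher (Foxn2 and Foxn4), where 23.0% of all genes were lower and 22.1% higher (45.1% in either direction). The 14 were Foxc2, Foxf1, Foxi3, Foxk1, Foxk2, Foxl1, Foxo1, Foxo3, Foxo4, Foxo6, Foxp1, Foxp4, Foxq1 and Foxr1. The median was -1.43 for the members and 0.03 for all genes. Between P6gonocyte and GFRA1pos, the neonatal gonocytes and the adult GFRA1-positive cells, 12 members were lower in P6gonocyte and 2 were higher. Of all genes, 21.9% were lower and 17.3% higher. The medians were -0.93 and -0.05. The higher genes were Foxn2 and Foxn4. The lower genes were Foxc2, Foxf1, Foxi3, Foxj1, Foxj2, Foxk1, Foxl1, Foxm1, Foxo3, Foxo6, Foxp1 and Foxp4. The remaining pairs served to order the groups: KITpos minus GFRA1pos gave 2 higher and 11 lower (24.9% and 23.7% of all genes, 48.6% in all), P6gonocyte minus GFRA1neg 3 and 11 (18.8% and 24.9%), and P6gonocyte minus KITpos 11 and 4 (21.8% and 27.3%, 49.1% in all). All 6 pairs share libraries with each other. Without the 4 libraries highest in spermatid markers, P6gonocyte minus GFRA1pos gave 1 higher member and P6gonocyte minus GFRA1neg also 1.

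**Figure D2:**
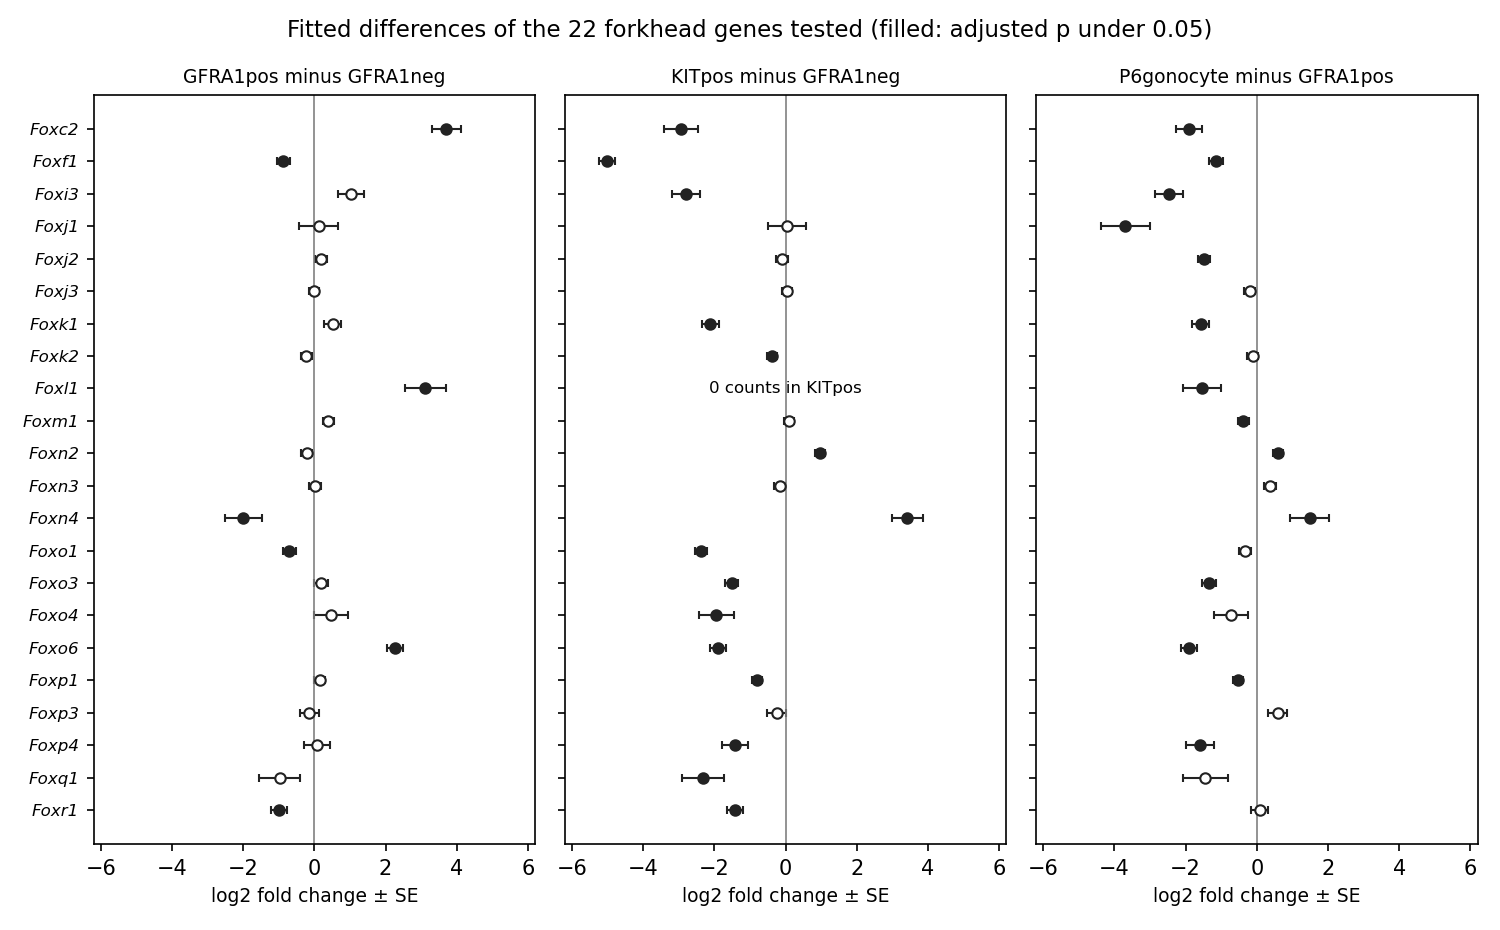
Fitted log2 fold change with its standard error (horizontal axis) of each of the 22 forkhead genes tested (vertical axis) in 3 comparisons, with filled points for adjusted p under 0.05. In the middle panel 13 filled points lie left of 0 and 2 right of it, and Foxl1, with 0 counts in KITpos, has no point.

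The Foxo genes encode the AKT-controlled members. Foxo1 (Entrez 56458) and Foxo3 (Entrez 56484) are shown with the 250 bases before their transcription start, because they are the most abundant Foxo genes here and differed in their order over the groups. The sequences are from RefSeq on GRCm38.p6, at chr3:52268087-52268336 on the plus strand for Foxo1 and chr10:42276696-42276945 on the minus strand for Foxo3, written 5′ to 3′ along the gene. Capitals mark CCAAT boxes on either strand (CCAAT or ATTGG).
Foxo1: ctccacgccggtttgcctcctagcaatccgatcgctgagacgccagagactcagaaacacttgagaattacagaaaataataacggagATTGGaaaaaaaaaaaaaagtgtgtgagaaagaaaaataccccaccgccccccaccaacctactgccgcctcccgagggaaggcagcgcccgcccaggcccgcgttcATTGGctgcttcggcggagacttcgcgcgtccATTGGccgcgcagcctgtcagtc
Foxo3: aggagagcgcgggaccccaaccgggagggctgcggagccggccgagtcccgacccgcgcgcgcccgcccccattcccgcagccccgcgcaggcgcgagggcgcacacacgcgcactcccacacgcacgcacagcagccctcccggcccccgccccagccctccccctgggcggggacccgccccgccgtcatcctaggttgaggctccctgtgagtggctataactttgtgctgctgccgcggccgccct
The Foxo1 stretch held 3 such boxes, 162, 55 and 23 bases before the start, and the Foxo3 stretch none. Neither held the forkhead motif GTAAACA (or TGTTTAC) or the cell cycle motif TTTGAA (or TTCAAA). Of 32851 promoters of this length, 33.8% held a CCAAT box, 16.0% TTTGAA and 3.2% GTAAACA. RefSeq entries were at hand for 12 of the 22 tested members, of which 4 held a CCAAT box, 3 held TTTGAA and 0 held GTAAACA.

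Foxo1 was highest in GFRA1neg and lowest in KITpos. Its level was 450, 328, 432 and 346 CPM in GFRA1pos, 663, 452, 666 and 764 in GFRA1neg, 96.5, 152, 140, 121 and 102 in KITpos and 282, 261, 375 and 322 in P6gonocyte. Every GFRA1neg library lay above every other library, and every KITpos library lay below. Means were 389 ± 61, 636 ± 131, 122 ± 24 and 310 ± 50 CPM (SD, n = 4, 4, 5 and 4). Foxo1 was 5.21-fold lower in KITpos than in GFRA1neg (log2 difference -2.38 ± 0.17 SE, edgeR adjusted p = 3.8e-09). It was also lower in GFRA1pos than in GFRA1neg (-0.71 ± 0.18, adjusted p = 0.010), a call that was not kept without the 4 libraries highest in spermatid markers (-0.62, adjusted p = 0.050). P6gonocyte and GFRA1pos overlapped and did not pass the test (-0.33 ± 0.18, adjusted p = 0.15), though without those 4 libraries the difference passed (-0.48, adjusted p = 0.048). The counting's use of strand is not given in the sources used here, and 7.8% of the Foxo1 exon bases overlap an antisense gene, Gm20402.

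Foxo3 kept like levels in both adult Kit-negative groups and was lower in both others. It stood at 247, 219, 257 and 217 CPM in GFRA1pos, 205, 174, 215 and 229 in GFRA1neg, 63.6, 111, 76.9, 63.4 and 44.6 in KITpos and 79.6, 90.3, 107 and 94.6 in P6gonocyte. The KITpos and P6gonocyte libraries overlapped each other and lay below all others. Against GFRA1neg, KITpos was 2.87-fold lower (-1.51 ± 0.18, adjusted p = 1.8e-06), and against GFRA1pos, P6gonocyte was 2.53-fold lower (-1.34 ± 0.19, adjusted p = 6.5e-05). GFRA1pos and GFRA1neg differed by 0.19 ± 0.19 on the log2 scale (95% interval -0.20 to 0.59, adjusted p = 0.58). The step from KITpos to P6gonocyte passed the test only in the absence of KITpos replicate 2, the highest of its group (0.37, adjusted p = 0.10 with it, and 0.58, adjusted p = 0.0037 without it).

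Foxo6, the member that is said not to shuttle out of the nucleus in the manner of its relatives, was the Foxo gene most unequal between the adult Kit-negative groups. Its values were 44.4, 64.7, 69.6 and 50.4 CPM in GFRA1pos, 12.0, 9.98, 9.92 and 15.7 in GFRA1neg, 2.38, 4.17, 2.33, 2.90 and 4.15 in KITpos and 12.2, 15.6, 15.5 and 17.6 in P6gonocyte. GFRA1pos lay above every other library and KITpos below. The GFRA1pos mean was 4.81-fold that of GFRA1neg (2.27 ± 0.22, adjusted p = 1.2e-06), the reverse of Foxo1 in the same libraries. KITpos was 3.74-fold below GFRA1neg (-1.90 ± 0.23, adjusted p = 1.6e-06) and P6gonocyte 3.76-fold below GFRA1pos (-1.91 ± 0.22, adjusted p = 9.8e-06). P6gonocyte and GFRA1neg overlapped (0.36 ± 0.22, adjusted p = 0.20).

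Foxo4 was the least abundant Foxo gene. It stood at 7.89, 9.75, 12.7 and 12.0 CPM in GFRA1pos, 4.70, 5.59, 10.3 and 10.2 in GFRA1neg, 3.78, 2.90, 1.30, 1.70 and 0 in KITpos and 4.99, 6.60, 7.03 and 6.86 in P6gonocyte. The KITpos libraries lay below all others, with means 3.97-fold below GFRA1neg (-1.95 ± 0.49, adjusted p = 0.0028) and 5.46-fold below GFRA1pos (-2.41 ± 0.49, adjusted p = 4.3e-04). P6gonocyte lay below GFRA1pos without passing the test (-0.73 ± 0.48, adjusted p = 0.24), though it passed in a fit of these groups alone (adjusted p = 0.022). Per kb of exon, Foxo1 made up 67.6% ± 2.3 (SD, n = 4) of the Foxo sum in GFRA1neg and 44.0% ± 4.1 (n = 4) in GFRA1pos, while Foxo6 made up 4.22% ± 0.63 and 21.5% ± 4.1. In KITpos the shares were 55.5% Foxo1, 37.2% Foxo3, 2.36% Foxo4 and 4.94% Foxo6, and in P6gonocyte 63.6%, 22.4%, 3.60% and 10.4%.

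**Figure D3:**
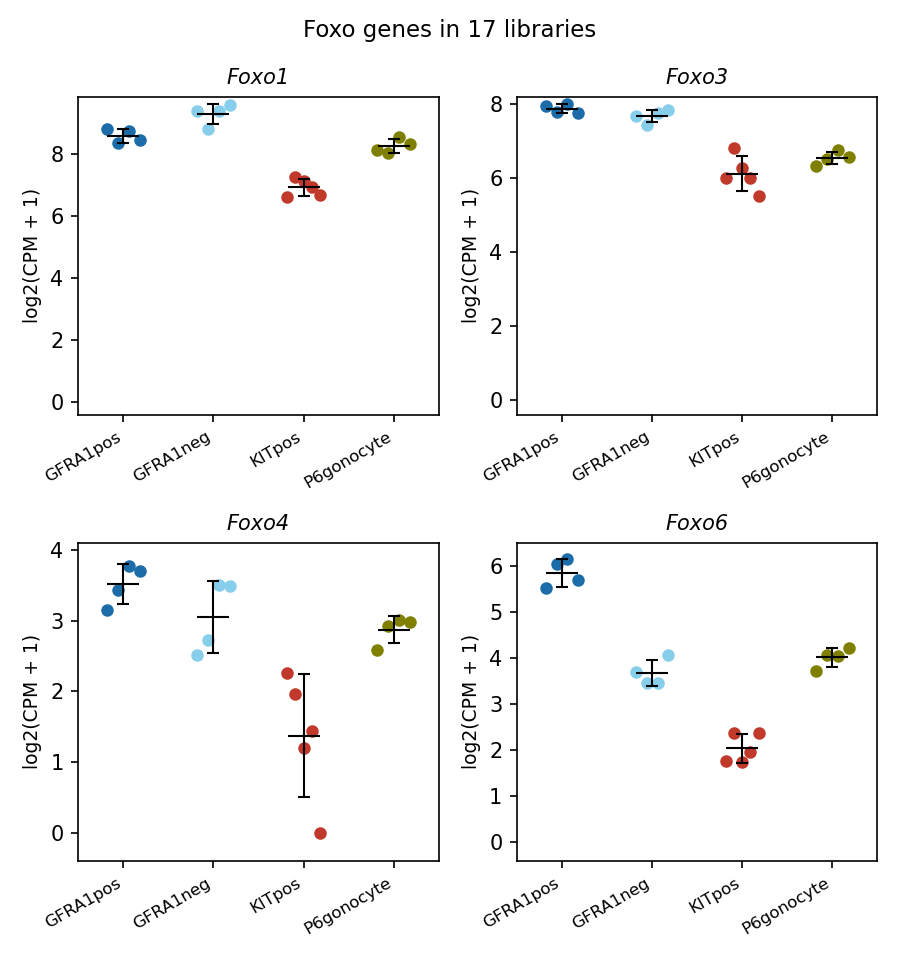
Level of the 4 Foxo genes (vertical axis, log2 of CPM + 1) in each of the 17 libraries (points) by sorted group (horizontal axis), with the mean and SD of the log2 values in black. Foxo1 peaks in GFRA1neg and Foxo6 in GFRA1pos, and the means of all 4 genes are lowest in KITpos.

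Foxc2, Foxf1 and Foxl1 are factors best known from mesenchyme, and Foxc2 and Foxf1 also from vessels. In the gene table they are neighbours, with 1 gene, Mthfsd, between Foxf1 and Foxc2 and none between Foxc2 and Foxl1. Foxc2 (Entrez 14234) was the forkhead gene with the largest difference between the adult Kit-negative groups. Its values were 66.2, 54.9, 65.4 and 52.1 CPM in GFRA1pos, 3.48, 6.55, 4.50 and 3.55 in GFRA1neg, 0, 1.27, 1.17, 0.170 and 0 in KITpos and 14.1, 18.7, 15.3 and 15.8 in P6gonocyte. No pair of groups overlapped. GFRA1pos was 13.2-fold above GFRA1neg (3.71 ± 0.40, adjusted p = 4.5e-06) and 3.73-fold above P6gonocyte (P6gonocyte minus GFRA1pos -1.90 ± 0.37, adjusted p = 6.4e-04). KITpos was 8.66-fold below GFRA1neg (-2.94 ± 0.48, adjusted p = 5.6e-05), and the difference was -3.57 (adjusted p = 2.6e-05) without KITpos replicate 2.

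The means of Foxl1 (Entrez 14241) followed the same order at a lower level. It was at 3.99, 5.07, 3.42 and 3.71 CPM in GFRA1pos, 0.470, 0.240, 0.115 and 0.986 in GFRA1neg, 0 in all 5 KITpos libraries and 1.53, 0.721, 1.76 and 1.51 in P6gonocyte. GFRA1pos was 8.94-fold above GFRA1neg (3.12 ± 0.58, adjusted p = 0.0019), and the difference was 3.79 (adjusted p = 0.0013) without GFRA1neg replicate 4. Against a floor of 3 counts over the KITpos libraries, KITpos was at least 5.30-fold lower than GFRA1neg and at least 47.4-fold lower than GFRA1pos. The first bound was 3.22-fold without GFRA1neg replicate 4. The P6gonocyte drop from GFRA1pos was called with all libraries (-1.54 ± 0.53, adjusted p = 0.032). It was lost without any 1 of the 8 libraries of these groups (adjusted p = 0.050 to 0.088). P6gonocyte and GFRA1neg overlapped, with P6gonocyte called higher (1.57 ± 0.59, adjusted p = 0.040). That call was lost without any 1 of 9 libraries (adjusted p = 0.053 to 0.11).

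Foxf1 (Entrez 15227) took another order, with its peak in GFRA1neg. Its values were 96.9, 80.0, 98.9 and 90.8 CPM in GFRA1pos, 163, 127, 177 and 204 in GFRA1neg, 2.94, 8.45, 5.05, 4.94 and 3.98 in KITpos and 40.5, 44.9, 44.5 and 36.6 in P6gonocyte. Here too no pair of groups overlapped. Foxf1 was 1.83-fold lower in GFRA1pos than in GFRA1neg (-0.87 ± 0.19, adjusted p = 0.0048). In KITpos it was 33.1-fold lower than in GFRA1neg (-5.02 ± 0.22, adjusted p = 5.0e-12), the largest fitted difference of any member in that comparison apart from Foxl1, which has only a lower bound. P6gonocyte was 2.20-fold below GFRA1pos (-1.14 ± 0.20, adjusted p = 2.8e-04). Per kb, Foxf1 reached 69.5 in GFRA1neg, next to 73.4 for Foxo1.

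The genes around these 3 were examined after their values were seen. Fendrr, a long noncoding RNA gene next to Foxf1, averaged 12.9 ± 1.6, 19.8 ± 1.2, 0.426 ± 0.32 and 1.67 ± 0.91 CPM in GFRA1pos, GFRA1neg, KITpos and P6gonocyte (SD, n = 4, 4, 5 and 4). It was lower in KITpos than in GFRA1neg (-5.42 ± 0.43, adjusted p = 1.2e-08) and did not differ between GFRA1pos and GFRA1neg past the test (-0.61 ± 0.34, adjusted p = 0.27). Mthfsd averaged 5.78, 5.57, 2.36 and 2.75 CPM and did not differ between GFRA1pos and GFRA1neg past the test (0.05, adjusted p = 0.95), unlike Foxf1 and Foxc2 on its sides. Like them, Mthfsd was lower in KITpos than in GFRA1neg (-1.23 ± 0.33, adjusted p = 0.0045). It was also lower in P6gonocyte than in GFRA1pos (-1.07 ± 0.34, adjusted p = 0.019), as they were. Of the paralogous neighbours Foxq1, Foxf2 and Foxc1, Foxf2 reached at most 1.03 CPM and Foxc1 at most 1.31 CPM in any library, and Foxq1 at most 5.43. Since Foxc2, Foxf1 and Foxl1 are also genes of stroma and vessels, the levels of such cells are given here. The 6 markers of peritubular myoid cells and fibroblasts summed to 19.9 to 29.1 CPM in GFRA1pos, 25.6 to 34.0 in GFRA1neg, 8.39 to 22.7 in KITpos and 34.1 to 47.6 in P6gonocyte, with none at 0 in a whole group. Of the 5 of them tested, 0 were higher and 1 lower in GFRA1pos than in GFRA1neg (7.30% and 6.84% of all genes). KITpos had 1 higher and 1 lower than GFRA1neg (22.1% and 23.0% of all genes). P6gonocyte had 2 higher and 0 lower than GFRA1pos (17.3% and 21.9% of all genes). The 4 endothelial markers summed to 19.8 to 27.1, 13.5 to 17.8, 4.17 to 5.88 and 13.5 to 16.3 CPM. Of these 4, 2 were higher and 0 lower in GFRA1pos than in GFRA1neg. KITpos had 2 lower than GFRA1neg and 4 lower than GFRA1pos (23.0% and 23.7% of all genes), and 0 higher than either. P6gonocyte had 2 lower and 0 higher than GFRA1pos. Foxc2 in GFRA1pos, at 52.1 CPM or more, and Foxf1 in both adult Kit-negative groups, at 80.0 or more, exceeded these summed marker levels in every library. Other levels did not. Foxl1, at 5.07 CPM or less, lay below both sums in every library. So did Foxc2 in GFRA1neg, at 3.48 to 6.55 CPM, and in KITpos, at 1.27 or less. Foxf1 in KITpos, at 2.94 to 8.45 CPM, lay below the myoid and fibroblast sum in every library. These levels are not divided by exon length, and the part of such cells in the differences was not tested.

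**Figure D4:**
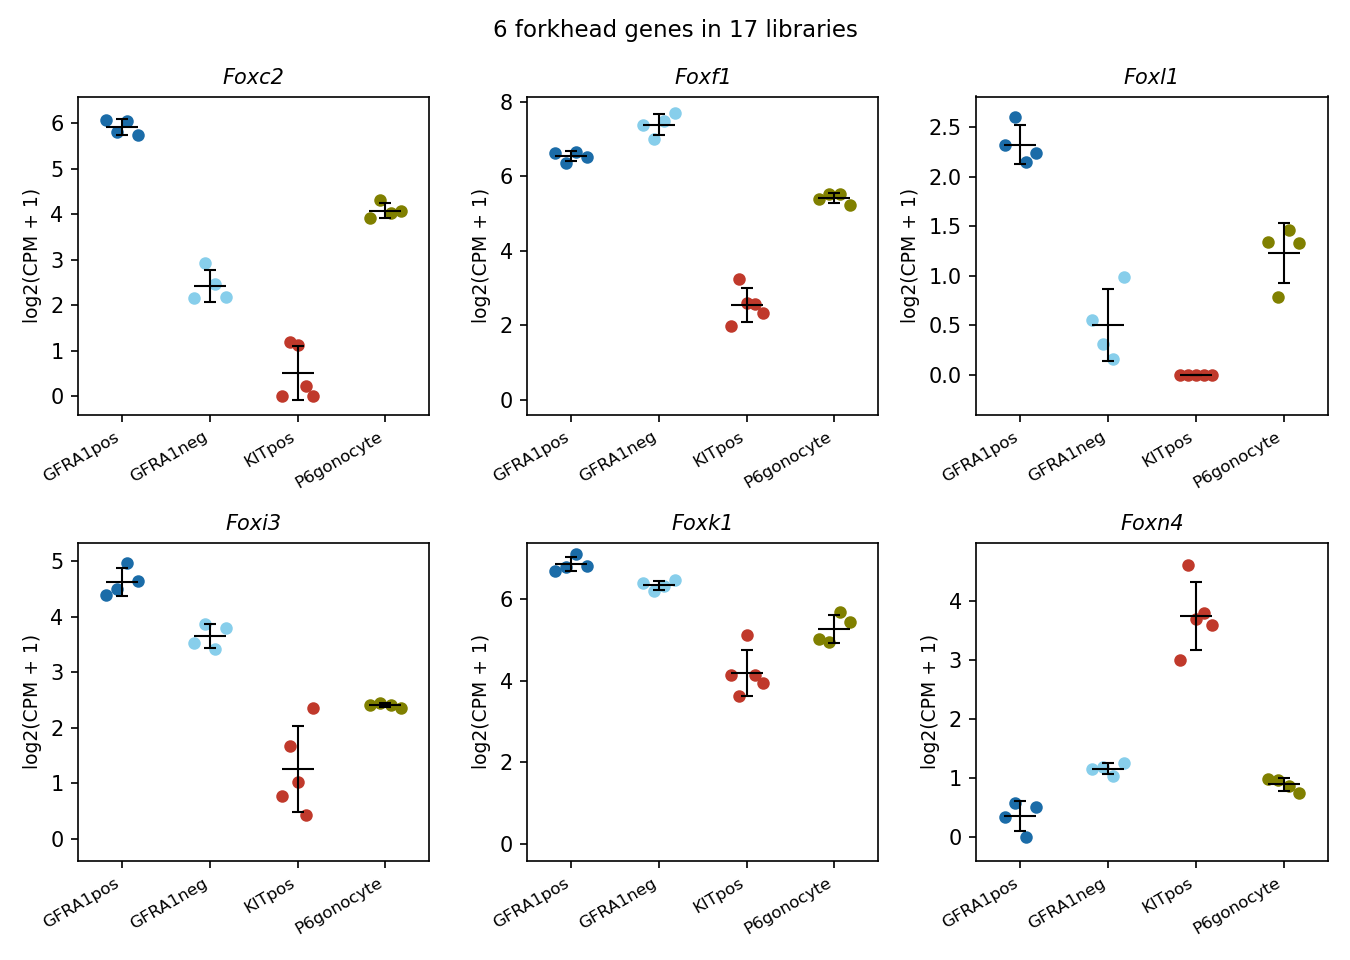
Level (vertical axis, log2 of CPM + 1) of 6 forkhead genes in each of 17 libraries (points) by sorted group (horizontal axis), with mean and SD of the log2 values in black. Foxc2, Foxl1, Foxi3 and Foxk1 are highest in GFRA1pos, Foxf1 in GFRA1neg, and Foxn4 is at 6.99 CPM or more in KITpos and at 1.38 or less elsewhere.

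Foxi3 is known from ectodermal and ear development, and its relatives Foxi1 and Foxi2 stayed under 1 CPM in every library. Foxi3 was at 19.9, 21.6, 30.4 and 24.0 CPM in GFRA1pos, 10.5, 13.7, 9.69 and 12.9 in GFRA1neg, 0.699, 2.20, 1.04, 0.341 and 4.15 in KITpos and 4.30, 4.44, 4.34 and 4.12 in P6gonocyte. The GFRA1pos libraries lay above those of GFRA1neg, yet the difference missed the threshold (1.03 ± 0.37, adjusted p = 0.074). It passed with DESeq2 (adjusted p = 0.0095), with limma voom (0.0014), in a fit of only these groups (0.0045), and without KITpos replicate 4 (0.035) or 5 (0.018). KITpos was 6.95-fold below GFRA1neg (-2.80 ± 0.40, adjusted p = 1.3e-05), and P6gonocyte was 5.57-fold below GFRA1pos (-2.47 ± 0.40, adjusted p = 1.6e-04).

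The Foxk genes encode a pair of broadly expressed factors that are controlled by mTOR signalling, of which Foxk1 varied more. Foxk1 stood at 102, 108, 135 and 111 CPM in GFRA1pos, 82.5, 71.7, 78.4 and 86.1 in GFRA1neg, 16.5, 11.3, 33.4, 16.7 and 14.4 in KITpos and 31.3, 29.8, 49.8 and 42.1 in P6gonocyte. It was 4.31-fold lower in KITpos than in GFRA1neg (-2.11 ± 0.23, adjusted p = 7.0e-07) and 2.97-fold lower in P6gonocyte than in GFRA1pos (-1.57 ± 0.24, adjusted p = 1.1e-04). GFRA1pos and GFRA1neg did not overlap, but their difference was called only without KITpos replicate 3 (0.51, adjusted p = 0.042, against 0.17 with it) or in a fit of these 2 groups (0.0088). Foxk2 averaged 49.9 ± 2.7, 58.5 ± 8.9, 45.5 ± 8.5 and 46.1 ± 5.2 CPM (SD, n = 4, 4, 5 and 4) and did not pass the test over the 4 groups (adjusted p = 0.090), though it passed without KITpos replicate 5 (0.021). Its KITpos call against GFRA1neg (-0.37 ± 0.14, adjusted p = 0.040) was lost without any 1 of 7 libraries, with adjusted p between 0.053 and 0.16 (GFRA1pos replicate 4, GFRA1neg replicates 1 to 3 and KITpos replicates 2 to 4).

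Of the 3 Foxj genes, Foxj1 and Foxj2 were called lower in P6gonocyte than in each adult group, and Foxj3 was called in none of these. Foxj2, a factor found in germ cells from meiosis onwards, stood at 61.5, 63.7, 61.5 and 59.5 CPM in GFRA1pos, 53.4, 49.4, 51.7 and 61.1 in GFRA1neg, 39.2, 73.1, 54.3, 45.7 and 39.1 in KITpos and 19.4, 25.5, 23.1 and 20.3 in P6gonocyte. P6gonocyte lay below every adult library, and the adult groups overlapped. It was 2.79-fold lower than GFRA1pos (-1.48 ± 0.17, adjusted p = 1.1e-05) and 2.28-fold lower than KITpos (-1.19 ± 0.17, adjusted p = 2.1e-05). KITpos against GFRA1pos was not called (-0.29, adjusted p = 0.14), except without KITpos replicate 2 (-0.47, adjusted p = 0.0067). Foxj3 averaged 126 ± 24, 127 ± 13, 131 ± 22 and 109 ± 12 CPM (SD, n = 4, 4, 5 and 4) and did not pass the test over them (adjusted p = 0.39).

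Foxj1, the regulator of motile cilia, was at 1.86, 8.97, 3.82 and 6.49 CPM in GFRA1pos, 1.50, 8.63, 2.19 and 7.00 in GFRA1neg, 6.29, 3.82, 6.48, 3.92 and 4.50 in KITpos and 0.416, 0.600, 0.517 and 0 in P6gonocyte. P6gonocyte was 13.8-fold below GFRA1pos (-3.70 ± 0.69, adjusted p = 4.8e-04). In both adult Kit-negative groups replicates 2 and 4 were high and replicates 1 and 3 low. The 7 spermatid markers, which Foxj1 is not among, summed to 1493 and 744 CPM in GFRA1pos replicates 2 and 4 and to 62.8 and 240 in replicates 1 and 3. In GFRA1neg they summed to 1321 and 310 in replicates 2 and 4 and to 503 and 287 in replicates 1 and 3. Without the 4 libraries highest in these markers the P6gonocyte difference was -2.77 (adjusted p = 0.011). The part of spermatid messages in the Foxj1 level was not tested beyond this.

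**Figure D5:**
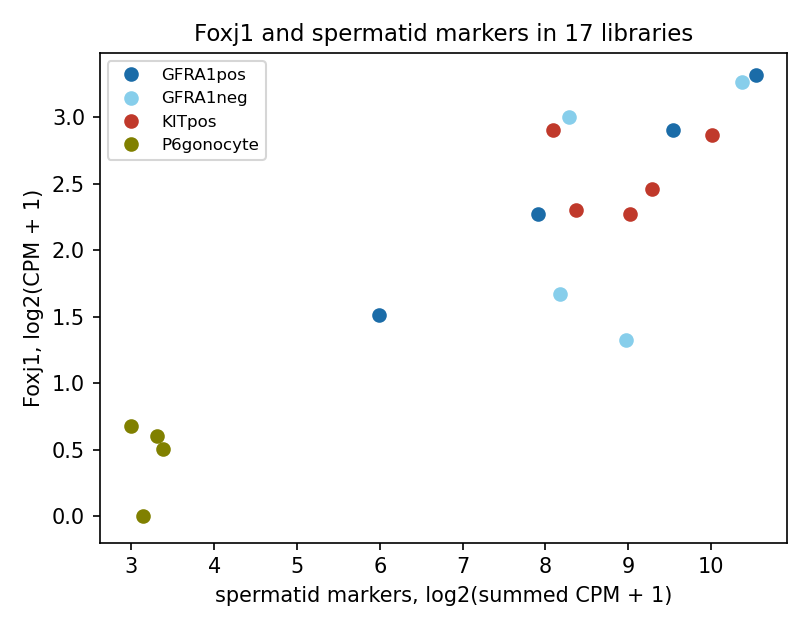
Foxj1 level (vertical axis, log2 of CPM + 1) against the summed level of 7 spermatid markers (horizontal axis, log2 of summed CPM + 1) in 17 libraries, coloured by sorted group. The 4 P6gonocyte libraries are lowest on both axes, and GFRA1pos replicate 2 is highest on both.

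Foxm1, the mitotic regulator, had the highest mean level per kb of any forkhead gene in KITpos, at 39.5 CPM per kb. Its means of 48.3 in GFRA1pos and 37.0 in P6gonocyte were close to those of Foxo1, at 44.9 and 35.7, and Foxo1 was the higher gene in 2 of 4 libraries of each group. Without GFRA1pos replicate 2 the GFRA1pos means were 43.5 for Foxm1 and 47.2 for Foxo1. Foxo1 and Foxf1 exceeded Foxm1 in GFRA1neg. Its values were 196, 292, 212 and 199 CPM in GFRA1pos, 157, 191, 170 and 168 in GFRA1neg, 168, 223, 204, 186 and 138 in KITpos and 169, 187, 168 and 165 in P6gonocyte. All libraries lay within 138 to 292 CPM. The test over the 4 groups gave an adjusted p of 0.062 with edgeR, 0.021 with DESeq2 and 0.034 with either other scaling, and it also passed without any 1 of GFRA1pos replicates 1 and 4 and KITpos replicates 2 and 5 (adjusted p = 0.034 to 0.049). GFRA1pos lay above GFRA1neg without overlap, by 0.39 ± 0.15 (adjusted p = 0.089 with edgeR and 0.040 with DESeq2). KITpos and GFRA1neg differed by 0.10 ± 0.14 on the log2 scale (95% interval -0.20 to 0.39, adjusted p = 0.61). The lower P6gonocyte level against GFRA1pos was called (-0.38 ± 0.15, adjusted p = 0.045). That call was lost without GFRA1pos replicate 2, the highest library (-0.23, adjusted p = 0.22), and without any 1 of GFRA1pos replicate 3, GFRA1neg replicates 1, 3 and 4, KITpos replicate 4 and P6gonocyte replicates 1 to 4 (adjusted p = 0.050 to 0.10). Without the 4 libraries highest in spermatid markers it was -0.21 (adjusted p = 0.34).

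Genes that FOXM1 is known to activate were gathered in a list of 30, all of them tested. Against GFRA1neg, KITpos had 22 higher and 1 lower (73.3% and 3.33%, where all genes gave 22.1% and 23.0%), with a median log2 difference of 0.82 beside 0.03 for all genes. Cenpa, a centromeric histone, was at 84.3 ± 15 CPM in KITpos and 24.7 ± 3.4 in GFRA1neg (1.77 ± 0.14, adjusted p = 1.2e-08). Tpx2, a spindle assembly factor, was at 168 ± 13 and 74.6 ± 7.1 CPM (1.17 ± 0.11, adjusted p = 6.8e-08). Top2a, a topoisomerase of dividing cells (1.50 ± 0.15), and Prc1, a midzone protein (1.58 ± 0.16), rose as well. GFRA1pos had 11 of the 30 higher than GFRA1neg and 0 lower (36.7% higher, beside 7.30% higher and 6.84% lower of all genes, median 0.28 beside -0.04). They included Cenpa (1.18 ± 0.14, adjusted p = 1.7e-05), the cyclin Ccnb1 (0.85 ± 0.12, adjusted p = 5.4e-05) and the mitotic kinase Plk1 (0.94 ± 0.18, adjusted p = 0.0016). P6gonocyte had 13 higher than GFRA1pos and 0 lower (43.3% higher, beside 17.3% higher and 21.9% lower of all genes, median 0.26 beside -0.05), led by the microtubule regulator Stmn1 (0.92 ± 0.13, adjusted p = 5.0e-05). All 3 counts use the shared libraries named above.

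Foxn2 and Foxn4 were the only members called higher in KITpos than in GFRA1neg. Foxn2, a broadly expressed member, stood at 43.0, 31.9, 39.5 and 35.8 CPM in GFRA1pos, 50.7, 33.9, 44.8 and 45.4 in GFRA1neg, 85.0, 74.9, 83.7, 90.6 and 89.8 in KITpos and 45.2, 53.4, 61.4 and 67.8 in P6gonocyte. The KITpos libraries lay above all others. KITpos was 1.94-fold above GFRA1neg (0.96 ± 0.14, adjusted p = 2.2e-05) and P6gonocyte 1.52-fold above GFRA1pos (0.60 ± 0.15, adjusted p = 0.0038). The latter was 0.49 (adjusted p = 0.050) without the 4 libraries highest in spermatid markers.

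Foxn4, known from neurogenesis in the retina and spinal cord, was close to absent outside KITpos. Its promoter stretch, at chr5:114273762-114274011 on the minus strand of GRCm38.p6 (RefSeq, 250 bases), is shown because Foxn4 had the largest rise of any member.
Foxn4: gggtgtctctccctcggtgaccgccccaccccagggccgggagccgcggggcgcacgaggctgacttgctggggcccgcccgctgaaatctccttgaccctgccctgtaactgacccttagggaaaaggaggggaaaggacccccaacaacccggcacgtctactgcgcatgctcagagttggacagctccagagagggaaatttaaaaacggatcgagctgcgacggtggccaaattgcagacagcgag
It held none of the 3 motifs searched, so no letters are in capitals. Foxn4 was at 0.266, 0.487, 0 and 0.422 CPM in GFRA1pos, 1.22, 1.28, 1.04 and 1.38 in GFRA1neg, 6.99, 23.5, 12.0, 12.9 and 11.1 in KITpos and 0.971, 0.961, 0.827 and 0.686 in P6gonocyte. KITpos exceeded every other library. It was 10.8-fold above GFRA1neg (3.42 ± 0.44, adjusted p = 4.4e-06) and 45.3-fold above GFRA1pos (5.42 ± 0.52, adjusted p = 8.8e-08, and 6.55 without the 4 libraries highest in spermatid markers). At the low levels of the other groups, GFRA1pos was 4.19-fold below GFRA1neg (-2.00 ± 0.52, adjusted p = 0.014), a call not shared by limma voom (adjusted p = 0.083) or a fit of these groups alone (0.058). Without those 4 libraries the difference was -2.95 (adjusted p = 0.019). P6gonocyte was called above GFRA1pos (1.49 ± 0.55, adjusted p = 0.038), and this was lost without GFRA1pos replicate 1 or 3 or P6gonocyte replicate 1, 2 or 3 (adjusted p = 0.062 to 0.078).

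Foxn3, a repressor tied to cell cycle checkpoints, varied little. It was at 51.4, 54.8, 46.5 and 47.6 CPM in GFRA1pos, 41.0, 41.9, 57.6 and 58.4 in GFRA1neg, 47.7, 49.9, 41.4, 54.0 and 28.0 in KITpos and 60.5, 66.4, 64.4 and 65.3 in P6gonocyte. The P6gonocyte libraries were above all adult ones and exceeded KITpos by 0.54 ± 0.16 (adjusted p = 0.010). Its test over the 4 groups (adjusted p = 0.036) was lost without any 1 of 6 libraries, GFRA1pos replicate 4, KITpos replicate 3 and P6gonocyte replicates 1 to 4 (adjusted p = 0.053 to 0.081).

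The Foxp genes encode repressors that pair with each other. Foxp1 stood at 126, 103, 128 and 129 CPM in GFRA1pos, 109, 83.7, 119 and 126 in GFRA1neg, 54.5, 77.9, 69.0, 50.3 and 64.7 in KITpos and 85.3, 81.7, 88.6 and 81.8 in P6gonocyte. KITpos was below every other library, 1.73-fold under GFRA1neg (-0.79 ± 0.14, adjusted p = 1.2e-04), and P6gonocyte was 1.44-fold under GFRA1pos (-0.53 ± 0.15, adjusted p = 0.0081). Foxp4 was at 8.68, 9.26, 16.2 and 13.6 CPM in GFRA1pos, 9.49, 11.8, 12.1 and 11.7 in GFRA1neg, 3.22, 6.02, 6.22, 4.60 and 0.692 in KITpos and 3.19, 4.80, 3.72 and 3.98 in P6gonocyte. Both of the latter groups lay below both of the former. KITpos was 2.72-fold below GFRA1neg (-1.42 ± 0.37, adjusted p = 0.0037) and P6gonocyte 3.04-fold below GFRA1pos (-1.60 ± 0.40, adjusted p = 0.0038). Foxp3, the regulatory T cell factor, averaged 7.15 ± 1.5, 7.88 ± 2.4, 6.61 ± 2.1 and 10.8 ± 0.84 CPM and did not pass the test over the groups (adjusted p = 0.089), though it passed with limma voom (0.040) and without KITpos replicate 2 (0.038). Its P6gonocyte level was called above KITpos (0.70 ± 0.26, adjusted p = 0.033), a call lost without any 1 of 6 libraries (KITpos replicates 1, 3 and 5 and P6gonocyte replicates 2 to 4, adjusted p = 0.057 to 0.076). Its exons overlap those of Ccdc22 over 14.4% of their length, so some of these counts may be read from the neighbour.

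Foxr1, a member with expression in germ cells, peaked in GFRA1neg along with Foxo1 and Foxf1. It was at 23.6, 27.2, 24.2 and 22.2 CPM in GFRA1pos, 48.1, 36.6, 51.7 and 56.1 in GFRA1neg, 28.4, 19.6, 14.2, 16.9 and 9.69 in KITpos and 26.1, 30.6, 22.7 and 23.6 in P6gonocyte. The GFRA1neg libraries lay above all others, and the other 3 groups overlapped. GFRA1pos was 1.98-fold below GFRA1neg (-0.99 ± 0.23, adjusted p = 0.0064) and KITpos 2.71-fold below it (-1.43 ± 0.22, adjusted p = 2.7e-05). KITpos against GFRA1pos was not called (-0.45, adjusted p = 0.10), except without KITpos replicate 1 (-0.68, adjusted p = 0.0079) and without the 4 libraries highest in spermatid markers (-0.69, adjusted p = 0.017). Foxq1 had its highest mean in GFRA1neg too, at 4.16 ± 0.95 CPM, with 2.10 ± 0.63 in GFRA1pos, 0.860 ± 1.1 in KITpos and 0.759 ± 0.36 in P6gonocyte. KITpos was lower than GFRA1neg (-2.32 ± 0.59, adjusted p = 0.0034, and -3.41 without KITpos replicate 5). Antisense exons of A530084C06Rik cover 66.1% of the Foxq1 exon bases, so the strand of these counts is unknown.

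The 22 members without enough counts to test reached at most 2.81 CPM in any library, and 11 of them stayed under 1 CPM in every library. They include all genes of 7 subfamilies (Foxa, Foxb, Foxd, Foxe, Foxg, Foxh and Foxs). Foxa2, an endoderm factor, reached that 2.81 in GFRA1pos replicate 3, averaged 1.44 CPM in GFRA1pos and 1.22 in GFRA1neg, and had 0 counts in KITpos, at least 17-fold and 14-fold lower by the floor of 3 counts. Foxd1 averaged 0.937 CPM in GFRA1neg and was also at 0 in KITpos, at least 11-fold lower. Foxh1, the partner of SMAD proteins in Nodal signalling, averaged 0.645 ± 0.43, 0.533 ± 0.42, 0.826 ± 0.51 and 0.0647 ± 0.075 CPM in GFRA1pos, GFRA1neg, KITpos and P6gonocyte. Foxl2, the granulosa cell factor, had 3 counts in all. With no filter on low counts, 7 of the 22 were called in at least 1 test, and Foxa2 and Foxd1 passed the test over the 4 groups (adjusted p = 1.4e-04 and 8.3e-04). For 3 of the 44 rows the counts equalled those of another row in every library; all 3 (Foxb1, Foxb2 and Foxe1) had 5 counts or fewer.

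The PI3K-AKT regulators of FOXO were gathered in a list of 41 genes, of which 39 were tested. Against GFRA1neg, KITpos had 19 lower and 7 higher (48.7% and 17.9% of the list, 23.0% and 22.1% of all genes), with a median log2 difference of -0.39 beside 0.03 for all genes. The receptor adaptor Irs2 (-3.71 ± 0.26, adjusted p = 2.3e-09), the AKT-like kinase Sgk3 (-1.96 ± 0.15, adjusted p = 5.4e-09), the growth factor receptor Igf1r (-1.90 ± 0.15, adjusted p = 1.2e-08) and the PI3K subunit Pik3cd (-2.66 ± 0.22, adjusted p = 1.7e-08) fell. The kinase gene Akt2 fell (-1.05 ± 0.13, adjusted p = 2.0e-06), and Akt1 missed the threshold at 0.49 ± 0.20 (adjusted p = 0.057). Pdpk1, the kinase that activates AKT, rose by 0.42 ± 0.15 (adjusted p = 0.025).

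Between GFRA1pos and GFRA1neg the same list had 3 higher and 5 lower (7.69% and 12.8%, beside 7.30% and 6.84% of all genes, median -0.03 beside -0.04). Rictor, a subunit of the mTOR complex that phosphorylates AKT, was lower in GFRA1pos (-0.64 ± 0.13, adjusted p = 0.0018), as were the PI3K subunit Pik3r3 (-0.63 ± 0.14), the deacetylase Sirt1 (-0.58 ± 0.15), Akt1 (-0.78 ± 0.21, adjusted p = 0.019) and Pdpk1 (-0.55 ± 0.15, adjusted p = 0.021). The insulin receptor gene Insr was higher, at 35.7 ± 2.9 against 15.2 ± 5.2 CPM (1.23 ± 0.28, adjusted p = 0.0055). Akt2 was not called (-0.18, adjusted p = 0.42). Without the 4 libraries highest in spermatid markers 3 genes were lower. P6gonocyte had 10 higher and 10 lower than GFRA1pos (25.6% each, beside 17.3% and 21.9% of all genes, median -0.18 beside -0.05), and 6 higher without those 4 libraries. Insr (-2.02 ± 0.29), Igf1r (-0.96 ± 0.16), Irs2 (-1.43 ± 0.24) and Akt2 (-0.35 ± 0.13) were lower, and the nuclear exporter Xpo1 (1.06 ± 0.16) and Akt1 (0.73 ± 0.21) were higher.

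Genes known as FOXO targets formed a list of 37, of which 30 were tested. The list holds genes that FOXO raises and genes that it lowers, so its direction as a whole has no fixed reading. KITpos had 13 lower and 5 higher than GFRA1neg (43.3% and 16.7%, beside 23.0% and 22.1% of all genes, median -0.42 beside 0.03). Ret, the GDNF co-receptor, was at 6.41 ± 3.4 CPM in KITpos and 148 ± 23 in GFRA1neg (-4.51 ± 0.25, adjusted p = 1.2e-10), and the stress gene Ddit4 at 0.815 ± 0.32 and 26.8 ± 7.4 (-5.03 ± 0.34, adjusted p = 1.6e-09). The 5 higher genes were the cyclin gene Ccnd1 (1.63 ± 0.12, adjusted p = 3.0e-09), Gadd45a (1.56 ± 0.31), Cat (1.05 ± 0.15), Atg12 (0.70 ± 0.14) and Sod2 (0.65 ± 0.12). The cyclin gene Ccnd2 was lower (-0.63 ± 0.16, adjusted p = 0.0031). Between GFRA1pos and GFRA1neg 7 were higher and 8 lower (23.3% and 26.7%, beside 7.30% and 6.84%, median 0.12 beside -0.04), and 3 were lower without the 4 libraries highest in spermatid markers. Ccnd2 was at 349 ± 33 CPM in GFRA1pos and 74.1 ± 8.8 in GFRA1neg (2.24 ± 0.17, adjusted p = 1.0e-07), Ccnd1 (1.24 ± 0.12) and Sesn2 (1.36 ± 0.20) were also higher, and Ddit4 was lower (-2.84 ± 0.31, adjusted p = 5.1e-06). P6gonocyte had 13 lower and 2 higher than GFRA1pos (43.3% and 6.67%, beside 21.9% and 17.3%, median -0.34 beside -0.05). Sesn2, a brake on mTOR signalling (-1.35 ± 0.20), and Txnip, an inhibitor of thioredoxin (-1.04 ± 0.17), fell, and catalase, Cat, rose (1.03 ± 0.15, adjusted p = 7.8e-05).

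The FOXH1 partners and Nodal signalling genes were 18, of which 10 were tested. KITpos had 4 lower than GFRA1neg and 2 higher (40.0% and 20.0%, beside 23.0% and 22.1% of all genes, median -0.11 beside 0.03). The corepressor Tgif1 (-2.83 ± 0.22), the signal carrier Smad3 (-2.51 ± 0.21), the corepressor Ski (-1.64 ± 0.17) and the receptor Acvr1b (-2.50 ± 0.27) fell, the largest of their adjusted p being 6.0e-07. GFRA1pos had 2 lower and 0 higher (20.0% lower, beside 6.84% lower and 7.30% higher of all genes), Smad3 (-0.96 ± 0.22, adjusted p = 0.0050) and Acvr2b (-0.59 ± 0.19, adjusted p = 0.044). P6gonocyte had 4 lower and 2 higher than GFRA1pos (40.0% and 20.0%, beside 21.9% and 17.3%, median 0.13 beside -0.05), with Acvr1b (-1.70 ± 0.28), Ski (-0.95 ± 0.17) and Tgif1 (-1.09 ± 0.22) among the lower. Foxh1 itself did not pass the filter on low counts.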

How the data were processed

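RNA from 17 libraries of sorted germ cells was amplified and sequenced in pairs, per the labels' protocols. The deposited values are raw counts per gene from the authors; reads were on mm9, and Trim Galore, TopHat2 2.0.4, Bowtie2 2.0.0-6 and DESeq2 are named per the submitters' processing notes. Which program and annotation counted the reads, and whether by strand, is not given in the sources used here. Of 24013 Entrez rows, 23930 matched a symbol. The column headed GFPa1pos_1 was read as GFRA1pos replicate 1.

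Counts were scaled to CPM with TMM and tested over all 17 libraries with edgeR 4.0.16 (quasi-likelihood, filterByExpr by group, Benjamini-Hochberg over 15451 genes, adjusted p under 0.05) in R 4.3.3. The same steps were tested on simulated data. DESeq2 1.42.0, limma 3.58.1 (voom), other scalings, no filter, a replicate block, fits of only the groups compared and leaving out libraries were alternatives. A bound against 0 uses 3 counts over the group, and counting intervals cover counting error only. Levels per kb use exon lengths; promoters are RefSeq's on GRCm38.p6, another build than the files, so no coordinate was carried over. Genes were named when past the test over the 4 groups with a group mean of 10 CPM or more; other members are given by role. The members and the lists (PI3K-AKT regulators, FOXO targets, FOXM1 targets, FOXH1 and Nodal, cell markers) were chosen with earlier results of these data known. Some listed genes are not reported here by name.

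Other marker sums, in CPM over GFRA1pos, GFRA1neg, KITpos and P6gonocyte, were: undifferentiated spermatogonia 1797 to 2252, 1256 to 1908, 197 to 418 and 890 to 1127; differentiating spermatogonia 69.8 to 119, 108 to 170, 633 to 923 and 288 to 443. Spermatocyte markers summed to 190 to 1094, 441 to 2162, 327 to 843 and 106 to 112. Sertoli markers summed to 12.8 to 16.1, 20.8 to 31.8, 10.9 to 37.2 and 46.0 to 155. Leydig markers summed to 13.7 to 25.3, 9.76 to 26.4, 21.8 to 97.3 and 14.3 to 21.5, and macrophage markers to 9.36 to 12.0, 10.9 to 14.2, 2.25 to 7.87 and 5.27 to 6.59.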

Additional observations from a re-analysis of the deposited data

Results flagged for a closer look

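In 5 of 87 groups of forkhead values, a library stood apart from the others of its group by Dixon's criterion, which chance meets in about 1 in 20 groups. Foxk1 was at 33.4 CPM in KITpos replicate 3, with the next library at 16.7. Foxm1 was at 292 CPM in GFRA1pos replicate 2, with the next at 212. Foxp1 was lowest in that same library, at 103 CPM, with the next at 126. Foxp4 was lowest in GFRA1neg replicate 1, at 9.49 CPM, with the next at 11.7. Foxq1 was at 2.77 CPM in KITpos replicate 5, with the next at 0.559.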

How the results depend on the processing

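No forkhead difference reversed under any alternative run. In the run without the most abundant row, all 37 counts of called genes stayed within the limit set for a change. Another 45 values, not counts of called genes, moved in that run. Leaving out the 4 libraries highest in spermatid markers was chosen after seeing the data; the causes of the changes below were not tested. The forkhead genes higher in GFRA1pos than in GFRA1neg, 3 in the report, numbered 5 with DESeq2, with the replicate block and with only the groups compared. Those higher in P6gonocyte than in GFRA1pos, 2 in the report, numbered 1 with no filter on low counts and 1 without the 4 libraries, and those higher than in GFRA1neg fell from 3 to 1 without the 4. Without the 4 libraries, PI3K-AKT regulators numbered 3 lower in GFRA1pos than in GFRA1neg (5 with them) and 6 higher in P6gonocyte than in GFRA1pos (10), and FOXO targets 3 lower in GFRA1pos (8). FOXM1 targets lower in GFRA1pos numbered 1 with limma voom and with the replicate block (0). Those lower in KITpos than in GFRA1neg numbered 2 with RLE or upper-quartile scaling, DESeq2 and the replicate block, and 0 without the 4 libraries (1). FOXH1 and Nodal genes lower in GFRA1pos numbered 1 with RLE scaling and without the 4 libraries (2), those higher in KITpos 1 with only the groups compared (2), and those higher in P6gonocyte than in GFRA1pos 1 without the 4 libraries (2).

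Leaving out 1 library at a time, the forkhead counts higher and lower ranged from 3 to 4 and 4 to 4 (GFRA1pos minus GFRA1neg), 2 to 2 and 13 to 15 (KITpos minus GFRA1neg), 1 to 3 and 10 to 15 (P6gonocyte minus GFRA1pos), 2 to 2 and 11 to 14 (KITpos minus GFRA1pos), 1 to 4 and 10 to 14 (P6gonocyte minus GFRA1neg) and 9 to 12 and 4 to 6 (P6gonocyte minus KITpos), and 18 to 22 varied over the 4 groups. For the first 3 of these comparisons, the ranges were 1 to 3 and 4 to 6, 5 to 8 and 19 to 20, and 8 to 13 and 6 to 11 for PI3K-AKT regulators. They were 7 to 9 and 5 to 8, 5 to 6 and 13 to 14, and 2 to 4 and 11 to 13 for FOXO targets. They were 8 to 12 and 0 to 1, 19 to 22 and 1 to 2, and 10 to 13 and 0 to 0 for FOXM1 targets. They were 0 to 0 and 1 to 2, 2 to 2 and 4 to 5, and 1 to 2 and 3 to 4 for FOXH1 and Nodal genes.

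The labels give no source shared by libraries of 1 number, and the deviations of same-numbered GFRA1pos and GFRA1neg libraries correlated at 0.03 to 0.52, with 3 of 4 pairs over 0.1, so the numbers were not taken to pair the samples. Best with its own number were 3 of 4 GFRA1pos and 1 of 4 GFRA1neg libraries. The replicate block made the count of forkhead genes higher in GFRA1pos 5. With it Foxi3 passed between GFRA1pos and GFRA1neg (adjusted p = 0.023), and Foxm1 and Foxk2 passed over the 4 groups (0.0075 and 0.020). Totals of 5178352 to 12641907 counts limit what can be read of the 22 members not tested.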
